A study of Homo sapiens with 9 samples.

Results

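The 10 genes described here make, coat, fill and empty the lipid droplet, or bring lipid into the cell: PLIN2, PLIN3, HILPDA, CPT1A, VLDLR, SCARB1, PNPLA2, DGAT1, DGAT2 and CD36. They were picked by name from the 58735 gene identifiers of the RNAseq count table, and all 10 were found through the GENCODE annotation, as protein-coding genes. RNA came from 786-0 cells, an established human clear cell renal cell carcinoma (ccRCC) line that lacks functional VHL and carries an inactivating mutation of HIF1α, so that HIF2α is expressed constitutively. Parental cells (WT), WT cells given 10 μM PT2385, a HIF2α antagonist, and HIF2α knockout cells (KO) were each sequenced in 3 replicates. The 3 groups shared a 48 h culture at 21% oxygen in DMEM with 5 mM glucose and 10% serum. How the KO line was made, and whether it is 1 clone, is not given in the sources used here. No group combined the knockout with PT2385, and no second knockout line was among the samples. The labels do not say that replicates were separate cultures, so p-values measure the spread between these libraries, which may be technical.

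Lipid droplets are stores of triglyceride and cholesteryl ester enclosed by a phospholipid monolayer, and they give clear cell carcinoma its pale cytoplasm. DGAT1 and DGAT2 add the last fatty acid to make triglyceride, perilipins such as PLIN2 and PLIN3 coat the droplet, and PNPLA2 (ATGL) begins its breakdown, which HILPDA inhibits. The fatty acids released can enter mitochondria through CPT1A, while VLDLR, SCARB1 and CD36 take up lipoproteins or fatty acids at the cell surface. PLIN2 and HILPDA are known HIF target genes, and HIF2α binds DNA with HIF1β at hypoxia response elements whose core letters are ACGTG or GCGTG.

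The stretch upstream of a gene is one place where such letters can lie, and a RefSeq window (GRCh38.p14) was at hand for 6 of the 10 genes, namely PLIN2, PLIN3, CPT1A, PNPLA2, VLDLR and CD36. Shown here are the 250 bases before the RefSeq start of PLIN2, which fell in both HIF2α comparisons, of its relative PLIN3, which did not fall in either, and of CPT1A and PNPLA2, which rose in both. The RefSeq start can differ from the outer end of the GENCODE gene span given further on: the PLIN2 window lies inside that span and the CPT1A window crosses its end. Each is written 5′ to 3′ on the strand of its gene, at chr9:19127493-19127742 (minus strand), chr19:4867668-4867917 (minus), chr11:68844278-68844527 (minus) and chr11:818664-818913 (plus), in that order. Capitals mark ACGTG or GCGTG on either strand, so that a match on the opposite strand reads as CACGT or CACGC.
PLIN2: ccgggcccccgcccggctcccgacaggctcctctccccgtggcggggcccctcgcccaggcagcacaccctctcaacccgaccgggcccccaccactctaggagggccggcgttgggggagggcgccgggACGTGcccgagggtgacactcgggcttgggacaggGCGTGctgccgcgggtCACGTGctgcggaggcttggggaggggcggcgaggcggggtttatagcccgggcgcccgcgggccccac
PLIN3: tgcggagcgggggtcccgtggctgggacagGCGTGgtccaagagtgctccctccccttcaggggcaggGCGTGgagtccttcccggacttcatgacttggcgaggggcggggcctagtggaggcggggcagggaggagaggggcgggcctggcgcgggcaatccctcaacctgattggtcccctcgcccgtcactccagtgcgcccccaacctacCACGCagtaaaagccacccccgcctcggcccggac
CPT1A: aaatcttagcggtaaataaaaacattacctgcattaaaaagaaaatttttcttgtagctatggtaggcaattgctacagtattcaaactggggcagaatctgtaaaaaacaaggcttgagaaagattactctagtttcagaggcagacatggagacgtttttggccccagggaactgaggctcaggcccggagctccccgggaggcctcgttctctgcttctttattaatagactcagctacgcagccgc
PNPLA2: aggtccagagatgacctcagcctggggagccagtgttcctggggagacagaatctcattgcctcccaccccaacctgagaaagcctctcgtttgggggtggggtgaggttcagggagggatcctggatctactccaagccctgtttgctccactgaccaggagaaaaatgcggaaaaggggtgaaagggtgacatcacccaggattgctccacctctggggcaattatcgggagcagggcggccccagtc

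The PLIN2 window held 4 matches: ACGTG on its own strand at −120 to −116 and at −68 to −64 from the start, ACGTG on the opposite strand at −69 to −65, which overlaps the previous match as the palindrome CACGTG, and GCGTG at −85 to −81. The PLIN3 window held 3 GCGTG matches and no ACGTG, and the CPT1A and PNPLA2 windows held neither. Of the windows not shown, that of VLDLR held 5 GCGTG matches and 1 of the 6 windows of CD36 held 1. Of 35093 human windows of this length, 18.5% held ACGTG, 32.2% held GCGTG and 43.2% held at least one of them on either strand. Base composition differed between the windows, with 78.0% G and C for PLIN2, 70.8% for PLIN3, 58.4% for PNPLA2 and 44.4% for CPT1A. A match is a string of letters and not a measured binding site, and binding was not measured here.

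The targeted gene, EPAS1, which encodes HIF2α, was checked first. It gave 3226, 3210 and 2788 counts in WT, 3075, 3317 and 3132 with PT2385 and 262, 360 and 307 in KO. The KO libraries thus held 11.5-fold less EPAS1 RNA than WT (log2 fold change −3.52, SE 0.0963, adjusted p = 2.15e-09 by edgeR's quasi-likelihood test), and a residue of 22.1 ± 2.52 CPM (TMM-normalised counts, scaled to a common library total; SD, n = 3) remained. EPAS1 with PT2385 differed from WT by −0.11 (adjusted p = 0.459), which did not pass the test. Total counts ran from 11881000 to 14730081 per library. All 10 renal carcinoma markers were detected, with summed levels of 6412 to 7020 CPM across the 9 libraries, while the adipocyte list (ADIPOQ, LEP and FABP4 at 0 in every library) summed to at most 2.26 CPM and the macrophage and leukocyte list (3 of 9 at 0) to at most 2.30 CPM. Fibroblast markers (3 of 6 at 0) summed to 8.78 to 10.1 CPM in WT, 10.5 to 13.3 with PT2385 and 5.22 to 7.0 in KO, endothelial markers (3 of 6 at 0) to 0.0823 to 0.167, 0.0747 to 0.210 and 0.412 to 0.617, and hepatocyte markers (4 of 7 at 0) to 68.3 to 85.4, 58.2 to 75.4 and 77.7 to 97.2, and their part in the results was not tested.

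With PT2385 and in KO, 5 of the 10 genes passed the test against WT in the same direction: PLIN2, HILPDA and SCARB1 fell, and CPT1A and PNPLA2 rose. PLIN3 rose in KO alone among the 2 comparisons with WT, and the direct KO against PT2385 test of PLIN3 also passed. Both comparisons use the same 3 WT libraries, so that a like direction in them is not independent. CD36 was too low to be tested, which leaves 9 genes. The members were chosen with earlier results of these data known. Their shares beside all genes are therefore a description and no evidence of enrichment. With PT2385, 5 of the 9 were called at an adjusted p under 0.05 (2 higher, 3 lower), against 7.7% of the 15089 genes tested (3.08% higher, 4.62% lower). The numbers of the WT and PT2385 replicates were taken as pairing the libraries. With the replicate as a block, 2305 genes were called in place of 1162, and the same 5 members. The PT2385 fold changes, adjusted p-values and refits without 1 library given here come from the fit without the block, which ignores this pairing. Without WT replicate 1 or without PT2385 replicate 2, 3 of the 9 were called, while the calls over all genes fell to 654 and 574. In KO, 6 of the 9 were called (3 higher, 3 lower), against 30.1% of 15192 genes (14.7% higher, 15.4% lower). The median absolute log2 fold change of the 9 was 0.27 with PT2385 and 0.57 in KO, where all genes tested had 0.14 and 0.22. The signed medians were −0.00 and 0.26, beside 0.00 and 0.00 over all genes tested. For 5 of the 9 genes with PT2385 the treated and WT libraries did not overlap, against 26.1% of all genes tested, and for 7 of the 9 in KO, against 43.8%. With 3 libraries against 3, the exact two-sided permutation test of a single gene cannot go below p = 0.1, so calls rest on the model fitted across all genes.

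**Figure D1:**
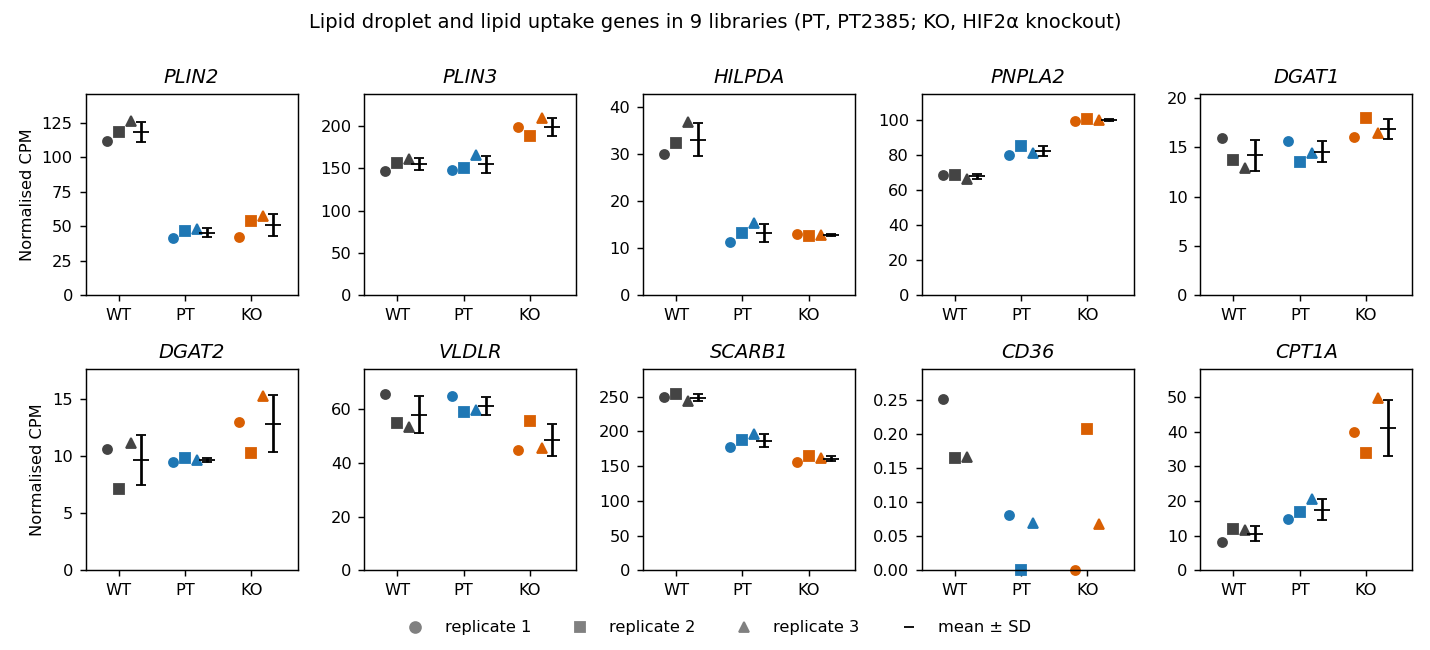
Normalised CPM (vertical axes, each from 0) of the 10 genes in each of the 9 libraries, with symbols for the replicate number and bars for mean ± SD (n = 3; none drawn for CD36). PLIN2 and HILPDA sat lower in all 6 PT2385 and KO libraries than in any WT library, while PNPLA2 and CPT1A stepped up from WT through PT2385 to KO without overlap.

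PLIN2, the perilipin that coats droplets in most cell types, had 1329, 1437 and 1505 counts in WT, 517, 619 and 685 with PT2385 and 545, 776 and 837 in KO. Each PT2385 and KO library lay below each WT library, whereas the PT2385 and KO libraries overlapped with one another. Normalised levels were 118 ± 7.22, 45.3 ± 3.19 and 51.1 ± 8.05 CPM (SD, n = 3). PLIN2 therefore fell 2.62-fold with PT2385 (log2 fold change −1.39, SE 0.0755, adjusted p = 1.76e-07) and 2.29-fold in KO (−1.20, SE 0.103, adjusted p = 7.98e-06). As these are bulk libraries, fewer cells expressing a gene and less RNA per cell cannot be told apart. PLIN2 lies at chr9:19108375-19149290 on the minus strand (GRCh38, ENSG00000147872), by the GENCODE span, which takes in the window with the CACGTG palindrome before the RefSeq start.

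PLIN3 (TIP47), a perilipin that is soluble in the cytosol and moves onto nascent droplets, took another course. Its counts were 1760, 1893 and 1933 in WT, 1829, 2016 and 2382 with PT2385 and 2579, 2720 and 3042 in KO. The PT2385 libraries overlapped the WT range once normalised (155 ± 7.08 and 155 ± 10.1 CPM), and the KO libraries, at 199 ± 10.2 CPM, lay above all of the others. The difference with PT2385 was −0.00 on the log2 scale with a 95% interval of −0.15 to 0.14 (adjusted p = 0.982), while PLIN3 rose 1.30-fold in KO (0.37, SE 0.0624, adjusted p = 9.7e-04). Of the other perilipins, PLIN1, the adipocyte form, had 0 to 7 counts per library, PLIN4 had 0 to 2 and PLIN5 had 0 in all 9, where 3 counts correspond to 0.204 to 0.253 CPM. PLIN2 and PLIN3 were thus the 2 perilipins of these libraries with counts to compare. PLIN3 lies at chr19:4838341-4867694 on the minus strand (ENSG00000105355).

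HILPDA, the small droplet protein that inhibits PNPLA2, had 358, 392 and 441 counts in WT, 140, 176 and 219 with PT2385 and 168, 182 and 188 in KO. No library of PT2385 or KO reached the lowest WT library, and the KO libraries were closely spaced, at 12.6 to 13.0 CPM. Levels went from 33.04 ± 3.50 CPM in WT to 13.2 ± 2.0 with PT2385 and 12.8 ± 0.191 in KO. HILPDA fell 2.49-fold with PT2385 (log2 fold change −1.32, SE 0.122, adjusted p = 2.23e-05) and 2.55-fold in KO (−1.35, SE 0.103, adjusted p = 3.07e-06). It is a short gene on the plus strand at chr7:128455849-128458418 (ENSG00000135245).

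PNPLA2, the triglyceride lipase on which HILPDA acts, went the opposite way. It had 819, 830 and 794 counts in WT, 990, 1141 and 1162 with PT2385 and 1284, 1452 and 1450 in KO. The 3 groups did not overlap, and their spread was small, with 67.8 ± 1.22, 82.1 ± 2.81 and 99.8 ± 0.773 CPM. PNPLA2 rose 1.21-fold with PT2385 (log2 fold change 0.27, SE 0.0636, adjusted p = 0.0218) and 1.49-fold in KO (0.57, SE 0.0592, adjusted p = 3.35e-05). The PT2385 call was lost without WT replicate 1 (adjusted p = 0.0672), 2 (0.0900) or 3 (0.0828) and without PT2385 replicate 2 (0.137), over a range of 0.00440 to 0.137 in 13 alternatives, with the direction kept in each. PNPLA2 (chr11:818914-825573, plus strand, ENSG00000177666) overlaps an antisense gene that had 1.65% as many counts. The coactivator of the enzyme, ABHD5, was not called in either comparison with WT (0.08 with PT2385 and 0.12 in KO on the log2 scale) and was chosen after its values were seen.

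The enzymes of the last step of triglyceride synthesis changed less. DGAT1, of the endoplasmic reticulum, had 190, 167 and 154 counts in WT, 194, 181 and 207 with PT2385 and 208, 259 and 240 in KO, or 14.2 ± 1.57, 14.5 ± 1.07 and 16.8 ± 0.993 CPM. The differences from WT were 0.03 with PT2385 (95% interval −0.23 to 0.29, adjusted p = 0.916) and 0.26 in KO (0.00 to 0.52, adjusted p = 0.123), although the KO libraries all lay above the WT ones. DGAT1 (chr8:144314584-144326910, minus strand, ENSG00000185000) shares 137 bases of exon with HSF1, on the opposite strand, which had 21813 counts over the 9 libraries against 1800 for DGAT1, and the strandedness of counting is not given in the sources used here, so its counts may hold reads of HSF1.

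DGAT2 (chr11:75759512-75801535, plus strand, ENSG00000062282), which also works at the droplet surface, had 127, 87 and 134 counts in WT, 118, 132 and 138 with PT2385 and 169, 148 and 222 in KO. Its groups overlapped in both comparisons with WT, at 9.67 ± 2.19, 9.67 ± 0.175 and 12.8 ± 2.50 CPM. The differences were −0.00 with PT2385 (−0.35 to 0.35, adjusted p = 0.999) and 0.42 in KO (0.01 to 0.84, adjusted p = 0.118), the latter passing without KO replicate 2 (0.57, adjusted p = 0.0405) and with no filter on low counts (adjusted p = 0.0306).

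Of the uptake genes among the members, SCARB1, the receptor that takes up cholesteryl ester from high-density lipoprotein, was the one called lower than WT. Its counts were 2985, 3077 and 2909 in WT, 2194, 2510 and 2811 with PT2385 and 2029, 2375 and 2346 in KO. The normalised levels formed 3 separate ranges, 243 to 253 CPM in WT, 177 to 196 with PT2385 and 157 to 165 in KO, with means of 249 ± 5.16, 187 ± 9.70 and 161 ± 4.0 CPM. SCARB1 (chr12:124776856-124882668, minus strand, ENSG00000073060) fell 1.33-fold with PT2385 (log2 fold change −0.42, SE 0.0601, adjusted p = 9.17e-04) and 1.53-fold in KO (−0.62, SE 0.0563, adjusted p = 1.27e-05).

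VLDLR, which binds triglyceride-rich lipoproteins, had 786, 668 and 639 counts in WT, 808, 789 and 855 with PT2385 and 582, 802 and 663 in KO. WT replicate 1 stood highest and KO replicates 1 and 3 lowest, and the WT and KO libraries overlapped, at 58.1 ± 6.78, 61.3 ± 3.39 and 48.7 ± 5.98 CPM for WT, PT2385 and KO. Neither difference from WT was called (0.07 with PT2385, 95% interval −0.12 to 0.27, adjusted p = 0.694; −0.24 in KO, −0.47 to −0.01, adjusted p = 0.115), but that in KO passed without KO replicate 2 (−0.35, adjusted p = 0.0255) and with no filter on low counts (adjusted p = 0.0329). VLDLR (chr9:2621182-2660056, plus strand, ENSG00000147852) overlaps its antisense gene VLDLR-AS1, which had 4.47% as many counts. CD36 (chr7:80369575-80679277, plus strand, ENSG00000135218), the fatty acid translocase, had 3, 2 and 2 counts in WT, 1, 0 and 1 with PT2385 and 0, 3 and 1 in KO, which is at or under the floor of 3 counts in every library, and a difference was not detectable at this depth.

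CPT1A, the carnitine palmitoyltransferase that admits long-chain fatty acids to mitochondria, showed the largest rise of the 9 genes tested in both comparisons with WT. It had 96, 145 and 140 counts in WT, 182, 227 and 296 with PT2385 and 516, 487 and 724 in KO. The lowest PT2385 library was above the highest WT library, and the lowest KO library was above the highest of PT2385. Levels were 10.6 ± 2.18, 17.4 ± 3.03 and 41.1 ± 8.07 CPM. CPT1A rose 1.65-fold with PT2385 (log2 fold change 0.72, SE 0.166, adjusted p = 0.0198) and 3.93-fold in KO (1.97, SE 0.169, adjusted p = 7.86e-06). The PT2385 call was lost without WT replicate 1, the lowest library (0.56, adjusted p = 0.0779), and without PT2385 replicate 2 (0.74, adjusted p = 0.0644), while the KO call held in all 13 alternatives. Its relatives CPT1B and CPT1C, of muscle and brain, had 2 to 7 and 0 to 2 counts per library. CPT1A lies on the minus strand at chr11:68754620-68844410 (ENSG00000110090).

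**Figure D2:**
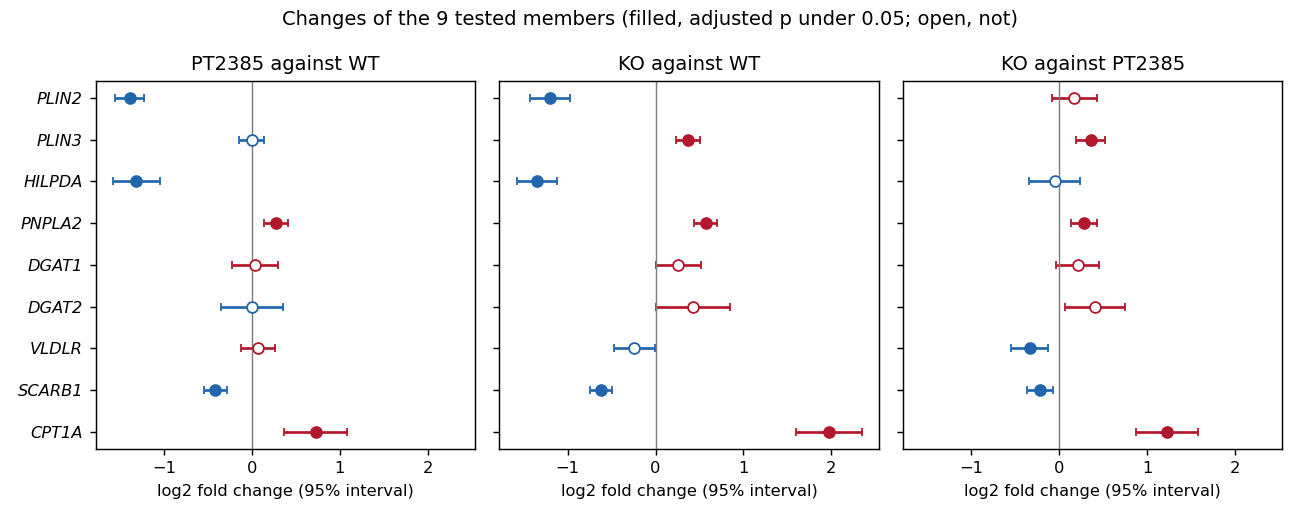
Log2 fold change (horizontal axis) with its 95% interval for the 9 tested genes in PT2385 against WT, KO against WT and KO against PT2385, filled where the adjusted p was under 0.05, red above 0 and blue below. PLIN2 and HILPDA sat between −1.20 and −1.39 in the first 2 panels and near 0 in the last, whereas CPT1A was above 0 in all 3.

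Whether the antagonist and the knockout differed was tested by setting the KO libraries directly against the PT2385 libraries. Of the 9 genes, 5 were called (3 higher in KO, 2 lower), against 18.8% of the 15402 genes tested (8.47% higher, 10.3% lower), and for 7 the groups did not overlap, against 35.4%. CPT1A was 2.35-fold higher in KO than with PT2385 (log2 fold change 1.23, SE 0.159, adjusted p = 3.65e-04). PLIN3 was also higher (0.36, SE 0.0738, adjusted p = 0.00604), as was PNPLA2 (0.28, SE 0.0661, adjusted p = 0.0129, or 0.0517 without KO replicate 1). For PLIN2 and HILPDA the difference between KO and PT2385 was not called. It was 0.17 for PLIN2 (95% interval −0.08 to 0.43, adjusted p = 0.339) and −0.05 for HILPDA (−0.34 to 0.24, adjusted p = 0.840), and a miss of the threshold does not show that the levels were equal. SCARB1 (−0.22, adjusted p = 0.0444) and VLDLR (−0.33, adjusted p = 0.0340) were lower in KO, close to the threshold, and the calls held in 4 and 8 of 13 alternatives; leaving out 1 library raised the adjusted p to as much as 0.177 for SCARB1 and 0.147 for VLDLR, each call being lost without 5 of the 6 libraries in turn (SCARB1 without any but PT2385 replicate 1, VLDLR without any but KO replicate 2). The number called was 2 without KO replicate 1 and 3 without KO replicate 3, PT2385 replicate 2 or PT2385 replicate 3. Over all genes, 1948, 3190, 1836 and 2426 were called in these refits, in that order, against 2897 with all 6 libraries. DGAT1 (0.21, adjusted p = 0.236) and DGAT2 (0.41, adjusted p = 0.0967) were not called, DGAT2 passing without KO replicate 2 (adjusted p = 0.0232). PT2385 was given for 48 h, and how long the knockout cells had lacked HIF2α is not given in the sources used here.

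Levels of different genes were compared per exon length, as TPM, that is counts divided by the length of the union of exons and scaled to a common total. The union may be longer than the transcripts expressed, which were not resolved here, so the order between genes depends on it. It spanned 14887 bases for SCARB1 and 16507 for VLDLR, against 2739 for PLIN3 and 5011 for PLIN2. By CPM, without length, SCARB1 was highest in WT (249, against 155 for PLIN3 and 118 for PLIN2). Per union length in WT, PLIN3 was highest at 236 ± 19.0 TPM (SD, n = 3), followed by PLIN2 at 98.8 ± 9.63. PNPLA2 (73.8 ± 2.84), SCARB1 (69.7 ± 2.16) and HILPDA (66.8 ± 9.70) came next, with overlapping ranges of mean ± SD. VLDLR (14.7 ± 1.82) and DGAT1 (14.3 ± 1.59) did not differ beyond their spread, nor did CPT1A (6.70 ± 1.40) and DGAT2 (5.14 ± 1.38), and CD36 was last. With PT2385, PLIN2 dropped from the second to the fourth place, at 39.4 ± 1.94 TPM, below PNPLA2 (93.6 ± 2.76) and SCARB1 (54.8 ± 1.72). HILPDA followed at 27.9 ± 3.67, and VLDLR (16.2 ± 1.25), DGAT1 (15.4 ± 1.42), CPT1A (11.6 ± 1.78) and DGAT2 (5.35 ± 0.0951) kept their order. In KO, PLIN3 (303 ± 29.8) and PNPLA2 (108 ± 4.61) led, SCARB1 (44.9 ± 1.94) and PLIN2 (42.5 ± 7.53) were within their spread, and so were CPT1A (26.2 ± 6.36) and HILPDA (25.8 ± 1.53). CPT1A, which came after DGAT1 in WT, stood in KO above DGAT1 (16.9 ± 0.662), VLDLR (12.2 ± 1.03) and DGAT2 (6.80 ± 1.63).

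**Figure D3:**
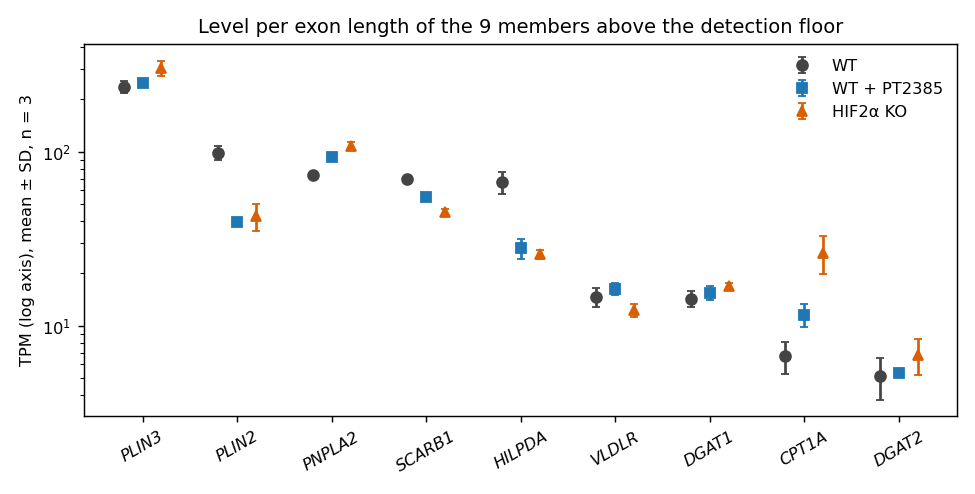
Level per exon length (TPM, log axis; mean ± SD, n = 3) of the 9 genes above the detection floor, ordered by their level in WT. By this measure, which depends on the union exon length used, PLIN3 was the highest in all 3 groups, from 236 TPM in WT to 303 in KO. CPT1A went from 6.70 to 26.2 TPM.

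Ratios taken within a library, which do not depend on its scaling, show the shift between paired functions, although their direction follows from the changes of the single genes above. The PLIN2 to PLIN3 ratio of TPM was 0.413, 0.415 and 0.426 in WT, 0.155, 0.168 and 0.157 with PT2385 and 0.116, 0.156 and 0.150 in KO. It was thus 2.61-fold lower with PT2385 and 3.00-fold lower in KO than in WT (each p = 0.1 by exact permutation, the smallest possible), and KO and PT2385 overlapped (exact permutation p = 0.2). The sum of the 2 perilipins was 318 to 368 TPM in WT, 279 to 302 with PT2385 and 315 to 382 in KO, so that the sum in KO overlapped that in WT with a lower share of PLIN2. The ratio of HILPDA to its target lipase PNPLA2 was 0.809, 0.874 and 1.03 in WT, 0.262, 0.285 and 0.349 with PT2385 and 0.242, 0.232 and 0.240 in KO. This ratio was 3.03-fold lower with PT2385 and 3.78-fold lower in KO, and the 3 groups did not overlap (each exact permutation p = 0.1). These are ratios of RNA, and neither protein, lipolysis nor droplet content was measured in these libraries.

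**Figure D4:**
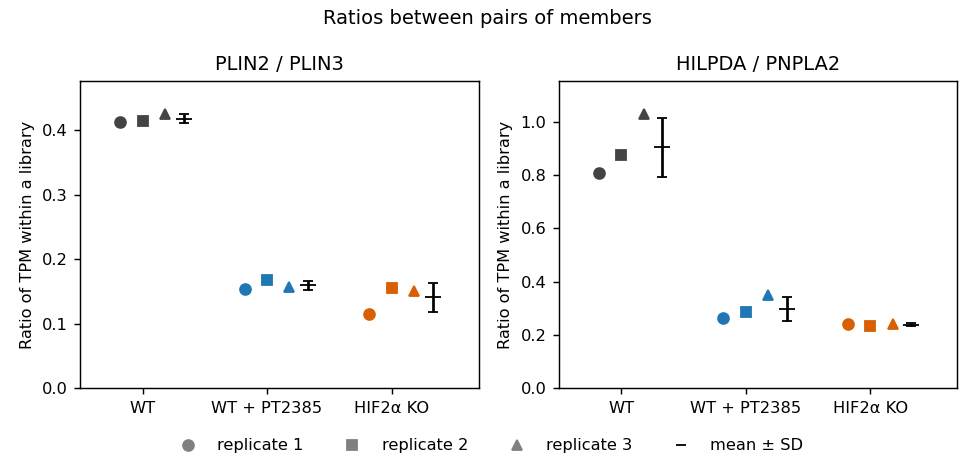
Ratios of TPM within each library for PLIN2 to PLIN3 and for HILPDA to PNPLA2, with symbols for the replicate number and bars for mean ± SD (n = 3); the vertical axes start at 0. The WT libraries, at 0.413 to 0.426 and 0.809 to 1.03, lay above all PT2385 and KO libraries.

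A further 107 genes in 5 lists covered the rest of the droplet and lipid handling pathway. With PT2385, 8 of the 77 tested were called (4 higher, 4 lower), or 10.4% beside 7.7% of all genes, and 19 were called with the replicate as a block, 3 without WT replicate 1, WT replicate 2 or PT2385 replicate 2, and 4 without WT replicate 3. In KO, 23 of 75 were called (14 higher, 9 lower), or 30.7% beside 30.1% of all genes. With the block, 35 of the 75 were called (22 higher), beside 5501 of the 15192 genes tested, in place of 4566. The replicate numbers were not taken as pairing KO with WT. In the fits without the block, the shares of called genes in these lists were thus near the background. With the block, 19 of the 77 pathway genes were called with PT2385, beside 2305 of the 15089 genes tested. These 19 held all 8 of the calls made without it. The share of the lists with the block was above that of all genes with PT2385 and in KO, and this difference was not tested. The list medians ran from −0.04 to 0.10 with PT2385 and from 0.02 to 0.18 in KO, beside 0.00 over all genes tested in both.

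Of the 16 other genes of droplet coat and assembly, 8 were tested. The share called was 12.5% with PT2385 and 12.5% in KO, beside 7.7% and 30.1% of all genes tested. CAV1, a caveolar protein also found on droplets, fell with PT2385 (log2 fold change −0.44, adjusted p = 0.00136), and no other gene of the list was called there. In KO the 1 call was ARFGAP1, a regulator of ARF GTPases, which rose (0.30, adjusted p = 0.00316). CAV1 went from 513 ± 35.4 CPM in WT to 380 ± 24.2 with PT2385 and was at 525 ± 54.0 in KO, and the KO against PT2385 difference passed its test (0.47, adjusted p = 0.00263).

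Of 20 genes of triglyceride and steryl ester synthesis, 1 rose and 2 fell with PT2385 (16 tested), and 2 rose and 2 fell in KO (15 tested). These calls made up 18.8% and 26.7% of those tested, beside 7.7% and 30.1% of all genes. GPAT3, a glycerol-3-phosphate acyltransferase at the first step, rose with PT2385 (0.66, adjusted p = 0.00261) and in KO (0.52, adjusted p = 0.00198), from 17.8 to 28.2 and 25.2 CPM. SOAT1, which esterifies cholesterol, fell from 223 to 191 CPM with PT2385 (−0.23, adjusted p = 0.0255) and to 152 in KO (−0.54, adjusted p = 2.83e-05), the former call being lost without WT replicate 1 (adjusted p = 0.101), 2 (0.109) or 3 (0.0806) or PT2385 replicate 2 (0.0900). ACSL4, which activates polyunsaturated fatty acids, fell with PT2385 (−0.34, adjusted p = 0.0445), a call lost without WT replicate 1 (0.150), 2 (0.173) or 3 (0.0796) or PT2385 replicate 2 (0.113), and with library-size scaling (0.0659). ACSL5, another acyl-CoA synthetase, had 38, 40 and 34 counts in WT, 55, 58 and 65 with PT2385 and 204, 198 and 218 in KO. It rose 4.80-fold in KO (2.26, adjusted p = 7.73e-07), the largest change of the lists there, and with PT2385 was at 0.51 (adjusted p = 0.118). ACSL5 overlaps ZDHHC6 on the opposite strand, which had 4636 counts against 910, so reads of the other gene may enter its count.

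Of 9 genes of lipolysis and lipophagy, all tested, 1 fell with PT2385, and 1 rose and 2 fell in KO. These calls made up 11.1% and 33.3% of the list, beside 7.7% and 30.1% of all genes tested. MGLL, the lipase that splits monoglyceride, fell from 310 ± 20.8 to 181 ± 20.4 CPM with PT2385 (−0.78, adjusted p = 6.67e-05). In KO it was at 251 ± 26.0 CPM (−0.29, adjusted p = 0.0183), a call lost without WT replicate 3 (adjusted p = 0.0827) or KO replicate 1 (0.0796), and KO lay above PT2385 (0.47, adjusted p = 0.00654). PNPLA3, a relative of PNPLA2 on the droplet, rose in KO (1.38, adjusted p = 0.00523), with 199, 213 and 100 counts against 73, 58 and 41 in WT. PNPLA3 overlaps SAMM50 on the same strand, which had 5291 counts against 930. DDHD2, a triglyceride lipase known from neurons, fell in KO (−0.24, adjusted p = 0.0234), a call lost without WT replicate 1 (0.0635), 2 (0.0737) or 3 (0.0606) or KO replicate 2 (0.0689) and with DESeq2 (0.0645), and it overlaps NSD3 on the opposite strand. MGLL, which acts on the last product of the pathway that PNPLA2 opens, thus fell where PNPLA2 rose.

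Of 28 uptake genes, 13 were tested with PT2385 and 12 in KO. The share called was 7.69% with PT2385 and 25% in KO, beside 7.7% and 30.1% of all genes tested. With PT2385 the 1 call was MFSD2A, a transporter of lysophospholipids (0.40, adjusted p = 0.0492), and it was lost without WT replicate 1 (0.125), 2 (0.210) or 3 (0.0661) or PT2385 replicate 2 (0.0882) or 3 (0.118), with a minimum of 10 counts in every library (0.0520) and with all 9 libraries in 1 fit (0.106). In KO, LRP1, a large receptor of lipoprotein remnants, rose 2.01-fold (1.01, adjusted p = 3.16e-05), from 89.2 ± 12.6 to 178 ± 17.0 CPM, and it shares 59 bases of exon with STAT6 on the opposite strand. LRP8, a reelin and apolipoprotein E receptor, fell in KO (−0.36, adjusted p = 0.00675), as did the scavenger receptor MSR1 (−1.34, adjusted p = 0.00328), which had a mean of 47.4 counts over the 9 libraries and was chosen after its values were seen. LPL, FABP3 and FABP7 had 0 counts in all 9 libraries.

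Of 34 genes of fatty acid oxidation, to which CPT1A admits the substrate, 31 were tested, of which 2 rose with PT2385, and 9 rose and 3 fell in KO. These calls made up 6.45% and 38.7% of the 31, beside 7.7% and 30.1% of all genes tested. Over all genes, 14.7% were called higher and 15.4% lower in KO. With PT2385 the calls were PPARGC1B, a coactivator of oxidative genes (0.58, adjusted p = 0.0386), and ECHS1, the enoyl-CoA hydratase of the mitochondrial spiral (0.28, adjusted p = 0.0458), and both were lost without any 1 library other than PT2385 replicate 1 (adjusted p 0.0563 to 0.172 and 0.0661 to 0.193). In KO the nuclear receptors PPARG (0.96, adjusted p = 0.00104, 11.9 to 22.9 CPM) and PPARA (0.69, adjusted p = 5.44e-04) and PPARGC1B (0.71, adjusted p = 0.00181) rose. ETFA, an electron carrier for the acyl-CoA dehydrogenases, fell in KO (−0.64, adjusted p = 9.4e-05) and was named after its values were seen. CPT1A, at 1.97 in KO, lay above the highest of this list, 0.96. With PT2385, at 0.72, CPT1A lay below the highest of the list, 1.10. PPARGC1A, named after its values were seen, went from 0.833 ± 0.367 CPM in WT to 1.81 ± 0.257 with PT2385. It was called there with the replicate as a block and was not among the 2 calls without it. PPARG, PPARA and PPARGC1B are regulators and not enzymes of the pathway, and the median of the 31 genes in KO was 0.18.

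**Figure D5:**
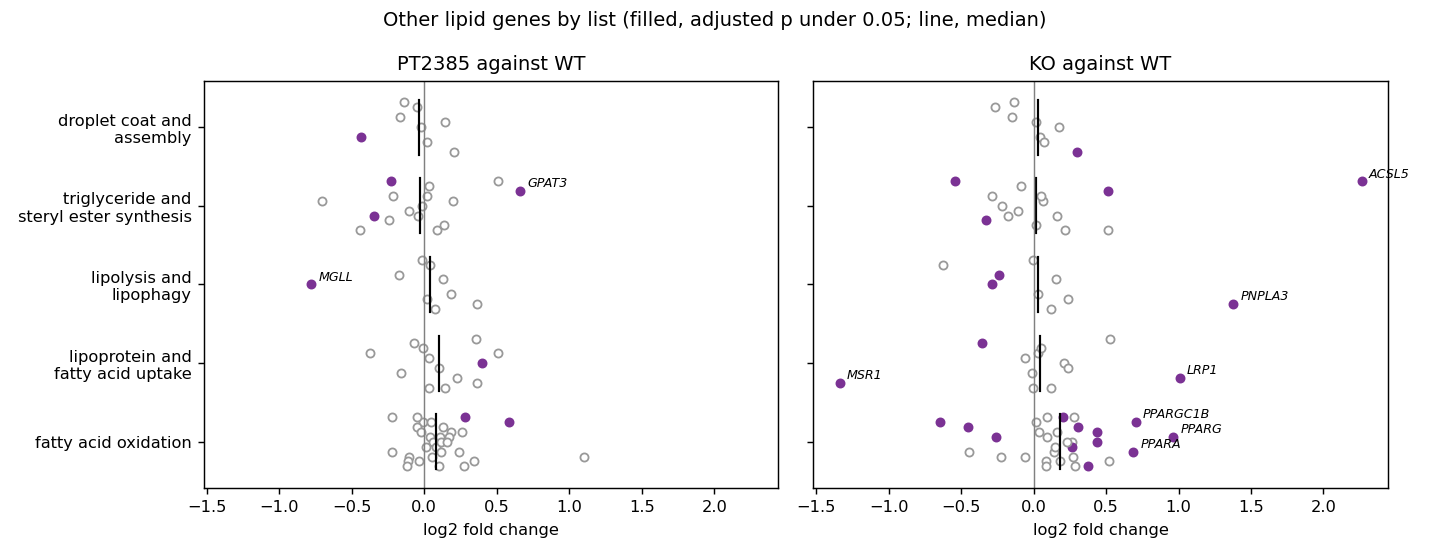
Log2 fold change (horizontal axis) of the other tested lipid genes by list, for PT2385 against WT and KO against WT; filled points were called at an adjusted p under 0.05, and the vertical line of each list is its median. Most points lie near 0, ACSL5 is farthest to the right in KO (2.26) and MGLL farthest to the left with PT2385 (−0.78).

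Finally, the genes most like each member were sought among the 706 genes called in both comparisons with WT, by the distance between the pairs of log2 fold changes. Ranked from the lowest, PLIN2 was 54th with PT2385 and 113th in KO, and HILPDA was 60th and 93rd. Ranked from the highest, CPT1A was 48th with PT2385 and 27th in KO, PNPLA2 was 245th and 142nd, whereas SCARB1, from the lowest, was 272nd and 230th. Nearest to PLIN2 was APOL2, of the apolipoprotein L family (−1.42 with PT2385 and −1.22 in KO, distance 0.0402), followed by the unnamed gene ENSG00000285730 (distance 0.0610) and CERNA2 (0.112). HILPDA had KLF7 (−1.25 and −1.27, distance 0.10), B3GNT4 (0.104) and, as for PLIN2, CERNA2 (0.106). CPT1A had ENSG00000285108 (0.78 and 2.04, distance 0.0892), the guidance factor SLIT2 (0.139) and the cell cycle inhibitor CDKN1A (0.263). SCARB1 had PLK4 (0.0177), SLC39A14 (0.0340) and AFF3 (0.0340), and PNPLA2 had KRT8 (0.0322), FTL (0.0351) and CYP1B1 (0.0436). The distances were shorter for SCARB1 and PNPLA2, whose changes were smaller and nearer to those of many other genes. The PT2385 calls of 5 of these genes were lost without WT replicate 1, with adjusted p of 0.108 for ENSG00000285108, 0.0950 for SLIT2, 0.188 for KRT8, 0.103 for FTL and 0.0705 for CYP1B1. Among them, ENSG00000285108 was also lost without WT replicate 2 and CYP1B1 without WT replicate 3, SLIT2, KRT8 and FTL without either of these, and each but CYP1B1 without PT2385 replicate 2.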

How the data were processed

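RNAseq of 9 libraries of 786-0 cells was analysed, with conditions, dose, time and replicate numbers taken from the labels. According to the methods of the study and the submitters' processing notes, FastQC served for the quality check, cutadapt for trimming, STAR for alignment to GRCh38 (hg38) and featureCounts for counting. The authors deposited the result as raw read counts per gene, with no normalisation, in 9 columns, all of which were mapped to a sample; annotation release and strandedness are not given in the sources used here. Identifiers were paired with symbols through GENCODE 44 (58207 of 58735). Total counts were 11881000 to 12296841 in WT, 12209143 to 14318384 with PT2385 and 12893484 to 14730081 in KO. The floor of 3 counts covers counting error only, whereas the 95% intervals come from the fitted model and take in the spread between libraries. Counts were filtered (filterByExpr, minimum count 10), scaled by TMM and tested per comparison, 3 libraries against 3, with the quasi-likelihood F test of edgeR 4.0.16 in R 4.3.3, with Benjamini-Hochberg adjustment over all genes tested and a call at an adjusted p under 0.05. Standard errors were derived from the F statistic, and 95% intervals from them. CPM used TMM factors over the 9 libraries, and TPM used GENCODE union exon lengths.

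Replicates differed by more than sampling noise (chi-square per degree of freedom 3.70 to 24.4), so all were kept as separate. The numbers of the WT and PT2385 libraries were taken as pairing them, since deviations from group means of same-numbered libraries correlated at 0.137 to 0.453 over 10140 genes, above 0.1 in every pair. The labels do not state what a replicate number marks. The members and lists were chosen with earlier results of these data known. Named were all members, EPAS1, up to 3 called genes per list and comparison with WT (largest change, mean of at least 100 counts, no overlap between groups) and the 3 genes nearest to each member called in both comparisons with WT; others are said to be chosen after their values were seen. Alternatives were DESeq2 1.42.0, other scalings and filters, all 9 libraries in 1 fit, the replicate as a block and leaving out each library. The edgeR steps were tested on simulated data. Promoter windows were read from RefSeq (GRCh38.p14).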

Additional observations from a re-analysis of the deposited data

How the results depend on the processing

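Each comparison was refitted under 13 alternatives. PLIN2, HILPDA and SCARB1 in both comparisons with WT, CPT1A, PNPLA2 and PLIN3 in KO against WT, and CPT1A and PLIN3 in KO against PT2385 passed the test in all 13. With the replicate block, 2305 genes were called with PT2385, and the pathway genes called rose to 19 with PT2385 and 35 in KO; with no filter on low counts they were 13 with PT2385. The block changed no call of a member other than DGAT2 in KO against WT (0.43, adjusted p = 0.0152). For the knockout the replicate numbers correlated at 0.0560 to 0.481 with WT and at 0.0915 to 0.415 with PT2385, with 5 and 4 of 6 libraries correlating best with their own number, so that these samples share only a number. Leaving out 1 library, 574 to 1451 genes were called with PT2385, 3344 to 5094 in KO and 1836 to 3190 in KO against PT2385, the counts that moved by over 1.5 times being those without WT replicate 1 (654), 2 (581) or 3 (728) or PT2385 replicate 2 (574) with PT2385, and without PT2385 replicate 2 (1836) in KO against PT2385. Of the members, 3 to 5, 6 to 8 and 2 to 5 were called, and of the pathway genes 3 to 9, 19 to 30 and 10 to 17. SCARB1 in KO against PT2385 was lost with DESeq2 (adjusted p = 0.0790), RLE scaling (0.0556), no filter (0.0692) and a minimum of 10 counts in every library (0.0601).

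Values near 0 changed sign. PLIN3 with PT2385 was 0.0167 with library-size scaling and −0.0576 to 0.0278 on leaving out 1 library, and DGAT1 was −0.0323 to 0.12. DGAT2 with PT2385 was 0.0186 with library-size scaling, 0.0019 with no filter, 0.00633 with the replicate block, 0.00187 with all 9 libraries in 1 fit and −0.17 to 0.12 on leaving out 1 library. HILPDA in KO against PT2385 was −0.15 to 0.0773 on leaving out 1 library. The cause of these changes was not tested. Counted over refits of single genes, with a gene counted once for each refit, 66 refits without 1 library lost a call and 448 kept direction and side of the threshold, and under other settings 11 lost a call and 597 kept both. CD36 and the perilipins other than PLIN2 and PLIN3 had too few counts for a comparison, and the reason for this was not tested.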
